A study of Mus musculus with 8 samples.

Results

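The miR-130 and miR-301 family is a set of miRNAs that share the same seed, the stretch of bases 2 to 8 that pairs with target mRNAs. It was followed here in basal progenitors, neurogenic precursors of the mouse embryonic cortex that divide away from the ventricular surface. The members are mmu-miR-130a, mmu-miR-130b, mmu-miR-301a and mmu-miR-301b, written without the species prefix from here on, and were chosen by name from the probe annotation of the arrays. They are 4 of the 611 mouse miRNAs with probes. The family was picked with the E16 against E13 comparison of these same arrays in view, in which miR-130b and miR-301b were lower at E16. The stage differences of the 4 members are therefore given as a description, with no p-value for any of them.

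Total RNA of cells isolated by fluorescence-activated sorting and labelled basal progenitors, from mouse cortex marked WT at embryonic day 13 (E13, 4 arrays) and embryonic day 16 (E16, 4 arrays) was hybridised to one-colour Agilent miRNA arrays, one replicate per array. The design text gives 3 litters per stage, so replicates may share a litter, and the spread between arrays is the only error available. The sources used here do not give the strain or the sorting gate. The array measures no mRNA, so the mRNA markers that define basal progenitors, such as Eomes, could not be checked. The cells are a bulk sample, in which fewer cells of a type and less RNA per cell cannot be told apart.

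A miRNA is cut from a hairpin precursor and loaded into an Argonaute protein, and its seed then selects mRNAs for repression. miRNAs with the same seed are predicted to share targets wherever they are encoded. Members of the miR-130 and miR-301 family are studied as regulators of growth and of TGF-beta signalling, and miR-130a also as a regulator of blood vessel growth.

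The mature sequences show what the family shares, with the seed in capitals (RefSeq, GRCm38.p6, 5′ to 3′). The other arm of the miR-130b hairpin, miR-130b-5p, which the array names miR-130b*, is given for contrast.

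mmu-miR-130a-3p: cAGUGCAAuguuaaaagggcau

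mmu-miR-130b-3p: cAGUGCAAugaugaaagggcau

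mmu-miR-301a-3p: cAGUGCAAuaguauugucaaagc

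mmu-miR-721: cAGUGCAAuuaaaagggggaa

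mmu-miR-130b-5p: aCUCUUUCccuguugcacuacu

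The mature miR-130a and miR-130b matched at 20 of 22 positions and differed by U11A and A13G, counted from the 5′ end with the miR-130a base first. miR-301a carries the same seed on another 3′ part. For miR-301b the hairpin is shown, with the stretch complementary to its brightest probe in capitals.

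Mir301b hairpin: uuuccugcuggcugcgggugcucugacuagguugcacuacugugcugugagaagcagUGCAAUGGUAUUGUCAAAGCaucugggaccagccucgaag

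The 4 genes lie at 3 loci. In RefSeq GRCm38.p6 the Mir130b hairpin spans chr16:17124061-17124142 and the Mir301b hairpin chr16:17124400-17124496, both on the minus strand, 257 bases apart and inside the protein-coding gene 2610318N02Rik. Mir130a, on chr2:84741115-84741178 (minus strand), overlaps no other gene of that annotation. The gene of miR-301a, named Mir301, lies on chr11:87113004-87113089 (plus strand) inside Ska2, which encodes a protein of the spindle and kinetochore. miR-130b and miR-301b are called the chromosome 16 pair in what follows, and miR-130a and miR-301a the members from other loci.

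Because probes of related miRNAs can share signal, the probes behind the values matter. Each is complementary to the 3′ end of its miRNA, and capitals mark the bases at which a probe differs from that of its near-namesake.

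miR-130a probe: atgccctttTaAcattgca

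miR-130b probe: atgccctttCaTcattgc

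miR-301a probe: gctttgacaatacTattgcac

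miR-301b probe: gctttgacaatacCattgca

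The probes of miR-130a and miR-130b were identical at 16 of 18 positions and differed by T10C and A12T. Those of miR-301a and miR-301b were identical at 19 of 20 positions and differed by T14C (positions from the 5′ end, the probe of the a member first). Between the miR-130 probes and the miR-301 probes only 2 or 3 positions matched when counted from the 5′ end. Out of register, their longest shared runs were 5 to 7 bases. The scanner files place the matches on mm9 at chr16:17124209-17124225 for miR-130b, chr16:17124551-17124569 for miR-301b, chr2:84581317-84581334 for miR-130a and chr11:86926559-86926578 for miR-301a. How much of a signal came from the near-namesake was not tested. The probe with the highest mean signal stood for its miRNA, on 10 spots per array for miR-130a, miR-130b and miR-301a and 5 for miR-301b.

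All 4 members were well above background on all 8 arrays. The processed signal, which is the spot intensity after background subtraction, lay between 223 and 2048 for miR-130a, 48.5 and 534 for miR-130b, 175 and 2080 for miR-301a and 20.2 and 270 for miR-301b. The lowest value of each member was on E16 replicate 4, the dimmest array. Spots of one probe on one array scattered with a coefficient of variation of 3.35% to 16.4%. These unscaled values follow the brightness of the arrays, whose 75th percentile of signal over the probes detected throughout was lowest on E16 replicate 4, at 109, and highest on E16 replicate 2, at 748. Values below are therefore the log2 of the signal divided by that percentile, called the log2 scaled signal. It compares arrays for one miRNA and not the levels of different miRNAs.

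The chromosome 16 pair separated the stages. For miR-130b the log2 scaled signal was 0.20, -0.02, 0.12 and 0.08 on E13 replicates 1 to 4 and -0.95, -1.0, -0.94 and -1.17 on E16 replicates 1 to 4. Every E16 array lay below every E13 array, and the arrays of a stage lay close together. The stage means were 0.10 ± 0.09 (SD, n = 4) at E13 and -1.01 ± 0.10 (SD, n = 4) at E16, a log2 difference of -1.11 (SE 0.14, 95% interval -1.42 to -0.80), or 2.16-fold higher at E13.

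For miR-301b, the neighbour of miR-130b, the E13 arrays gave -0.71, -1.49, -0.86 and -0.68 and the E16 arrays -1.90, -2.40, -1.89 and -2.43. The stages again did not overlap, with E13 replicate 2 the lowest of its stage and E16 replicates 2 and 4 below the other two. The means were -0.93 ± 0.38 (SD, n = 4) and -2.15 ± 0.30 (SD, n = 4), a log2 difference of -1.22 (SE 0.23, 95% interval -1.75 to -0.69), or 2.33-fold higher at E13.

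The members from other loci differed less between the stages. For miR-130a the E13 arrays gave 2.03, 1.56, 1.82 and 1.82 and the E16 arrays 1.53, 1.45, 1.57 and 1.04. The stages overlapped, since E16 replicate 3 lay just above E13 replicate 2. The means were 1.81 ± 0.19 (SD, n = 4) and 1.40 ± 0.25 (SD, n = 4), a log2 difference of -0.41 (SE 0.18, 95% interval -0.81 to -0.0042). Without E16 replicate 4 it was -0.23.

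For miR-301a the E13 arrays gave 2.0, 1.23, 1.98 and 2.02 and the E16 arrays 1.77, 1.06, 1.65 and 0.69. E13 replicate 2 was far below the other E13 arrays and below 2 of the E16 arrays, and this member had the widest spread of the 4. The means were 1.80 ± 0.39 (SD, n = 4) and 1.29 ± 0.51 (SD, n = 4), a log2 difference of -0.51 (SE 0.29, 95% interval -1.17 to 0.15). It was -0.25 without E16 replicate 4 and -0.70 without E13 replicate 2.

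**Figure D1:**
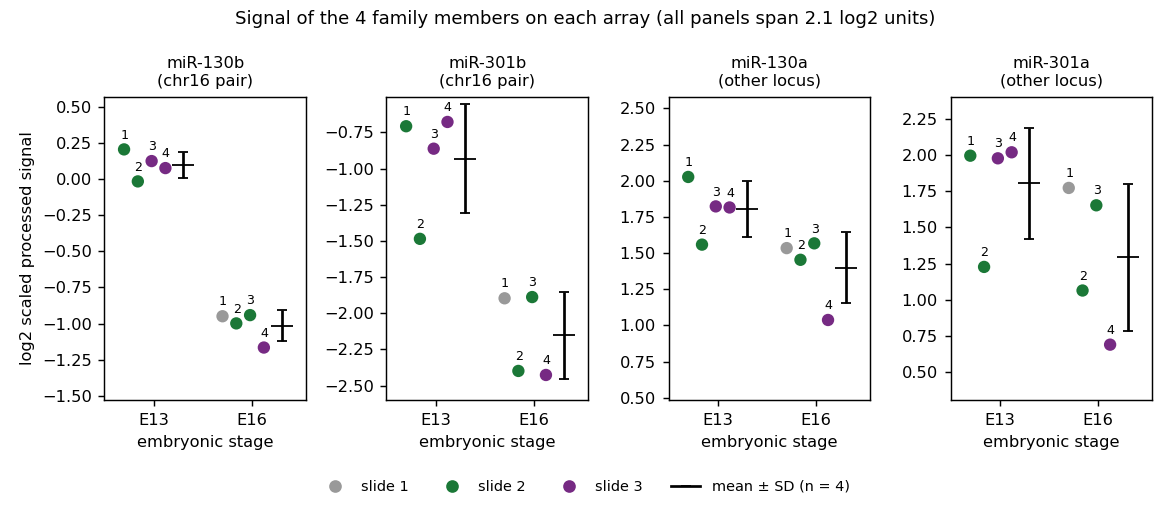
Log2 scaled processed signal of the 4 family members (vertical axis) on each E13 and E16 array (points, numbered by replicate and coloured by slide), with the mean and SD of 4 arrays beside them. The stages are apart for miR-130b and miR-301b and overlap for miR-130a and miR-301a, and E13 replicate 2 is low for miR-301a at 1.23 and for miR-301b at -1.49.

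In the limma fit over the 153 tested miRNAs, 2 of the 4 members, miR-130b and miR-301b, were among the 40 called lower at E16, which is 26.1% of all tested miRNAs. Of the 11 called higher (7.19%), 0 were members. All 4 E16 arrays lay below all 4 E13 arrays for the same 2 members and for 30.7% of the tested miRNAs, and above them for 0 members and 7.84% of the tested miRNAs. Nothing is read from these counts, as this contrast was in view when the family was chosen. The median difference of the 4 members was -0.81 against -0.40 over all tested miRNAs. Relative to that overall median, miR-130b lay at -0.71 and miR-301b at -0.82, whereas miR-301a lay at -0.11 and miR-130a at -0.01. Among the 75 miRNAs detected on all 8 arrays, whose median was -0.15, miR-301b had the second lowest difference, and miR-130b, miR-301a and miR-130a ranked 8, 16 and 23 from the lowest.

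**Figure D2:**
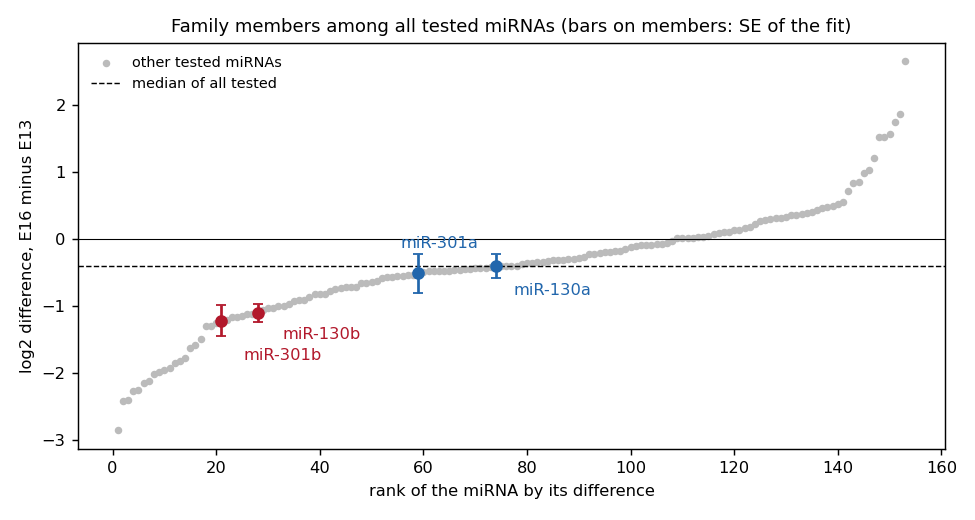
Log2 difference between the stages (E16 minus E13, vertical axis) of all 153 tested miRNAs in rank order (horizontal axis), with the family members in colour and bars for their SE. miR-301b (-1.22) and miR-130b (-1.11) sit among the lower values, and miR-301a (-0.51) and miR-130a (-0.41) near the dashed median of -0.40.

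The position of zero depended on how arrays were scaled. With the 75th percentile taken over all mouse probes, most of them near background, the median of all tested miRNAs moved from -0.40 to 0.42, and the calls turned from 11 higher and 40 lower to 47 higher and 16 lower. miR-130b was then at -0.29 and miR-301b at -0.40, with neither called, and miR-130a and miR-301a turned to 0.41 and 0.31. Relative to the overall median, miR-130b and miR-301b were at -0.71 and -0.82 there too. With quantile normalization, which gave 13 higher and 23 lower calls and a median of -0.15, miR-301b was at -1.20, miR-130b at -1.19, miR-130a at -0.50 and miR-301a at -0.44.

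The difference of 2 members on the same array does not depend on the scaling between arrays. Such a gap includes the brightness of both probes, so its size says nothing about levels, and only its change between stages is read. The chromosome 16 pair was picked with its lower signal at E16 in view. The changes of its gaps to other members are therefore a description too, with no p-value. The mean of the chromosome 16 pair minus the mean of miR-130a and miR-301a was -2.26, -2.14, -2.27 and -2.22 on E13 replicates 1 to 4. On E16 replicates 1 to 4 it was -3.08, -2.96, -3.03 and -2.66. The E16 arrays were all below the E13 arrays, with E16 replicate 4 nearest to them. The gap changed by -0.71 (SE 0.10, 95% interval -0.95 to -0.47) from -2.22 ± 0.06 (SD, n = 4) to -2.93 ± 0.19 (SD, n = 4). On the linear scale the pair at E16 stood at 0.61 times its E13 level relative to the members from other loci.

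The changes of both near-namesake gaps were close to each other as measured with the brightest probes. The gap between miR-130b and miR-130a ran from -1.82 to -1.58 on the E13 arrays and from -2.51 to -2.20 on the E16 arrays, a change of -0.70 (SE 0.09, 95% interval -0.92 to -0.49). The gap between miR-301b and miR-301a ran from -2.84 to -2.70 at E13 and from -3.67 to -3.12 at E16, a change of -0.71 (SE 0.12, 95% interval -1.01 to -0.41). In neither did the stages overlap. The closeness of both changes depended on the processing. The mean of all probes gave -0.76 for miR-130b minus miR-130a and -0.24 for miR-301b minus miR-301a. Normexp background correction, with an offset of 50 added to every signal, gave -0.50 and -0.34.

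Across the namesakes the changes were -0.81 (SE 0.15, 95% interval -1.19 to -0.44) for miR-301b against miR-130a and -0.60 (SE 0.26, 95% interval -1.24 to 0.039) for miR-130b against miR-301a. The stages overlapped in the last of these, where E16 replicate 4, at -1.86, lay above the lowest E13 array. Its direction differed between the slides, with a change of -0.81 within slide 2 and 0.04 within slide 3, where E16 replicate 4 is the only E16 array, while miR-301b against miR-130a changed by -0.77 and -0.88.

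Within the chromosome 16 pair, miR-130b minus miR-301b was 1.03 ± 0.31 (SD, n = 4) at E13 and 1.14 ± 0.23 (SD, n = 4) at E16. That change of 0.11 (SE 0.19, 95% interval -0.36 to 0.58) was smaller than the spread between arrays. The gap between miR-130a and miR-301a changed by 0.10 (SE 0.20, 95% interval -0.38 to 0.59), also less than the spread. Both intervals leave room for differences of over 0.3 log2 units in either direction.

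**Figure D3:**
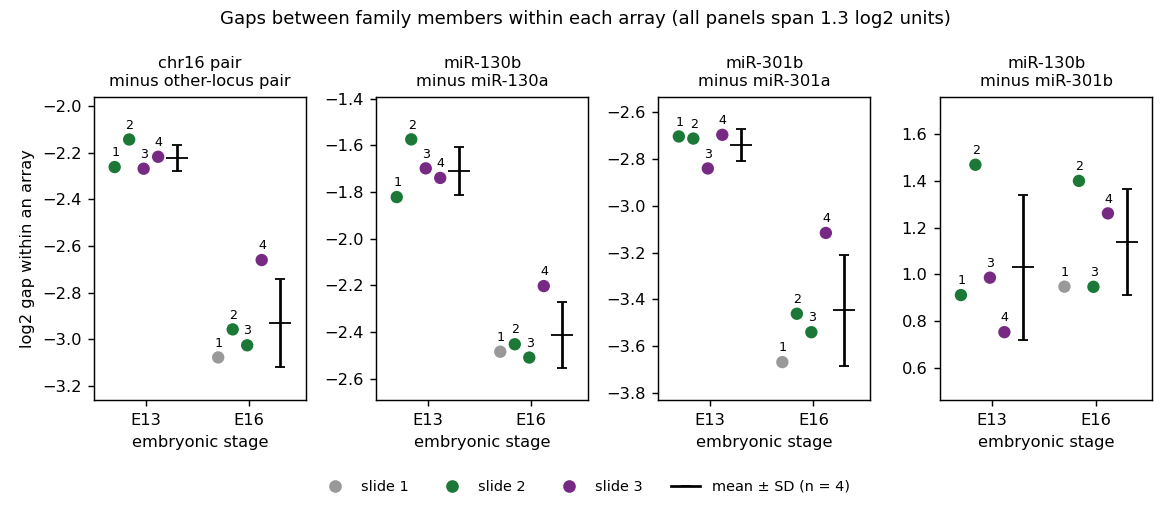
Difference in log2 scaled signal between family members on the same array (vertical axis) at E13 and E16 (points, numbered by replicate and coloured by slide), with the mean and SD of 4 arrays. The first 3 panels change by -0.71, -0.70 and -0.71 with no overlap of the stages, and the gap inside the chromosome 16 pair overlaps, with a change of 0.11.

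The arrays came from 3 slides, of which slides 2 and 3 held both stages. Within slide 2, with 2 arrays per stage, the gap between the pair and the other loci changed by -0.79, with -0.78 for miR-130b against miR-130a and -0.79 for miR-301b against miR-301a. Within slide 3, where E16 replicate 4 was the only E16 array, the changes were -0.42, -0.48 and -0.35. Without E16 replicate 4 the gap changed by -0.80 over the remaining arrays. The E13 samples, on slides 2 and 3, all occupied row 2, and the E16 samples, on slides 1 to 3, all occupied row 1. An effect of that position cannot be told apart from one of stage.

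Shorter probes of the same miRNAs, which are less bright, gave a second reading that is not independent of the first. The 17-base probe of miR-130b differed by -1.16 between the stages and its 18-base probe by -1.11. The 19-base and 20-base probes of miR-301b differed by -1.19 and -1.22. For miR-130a the 18-base and 19-base probes gave -0.34 and -0.41, and for miR-301a the 20-base and 21-base probes gave -0.32 and -0.51. The remaining probes of miR-301b, of 17 and 18 bases, were well above background on 0 and 1 of the 8 arrays. With the second-brightest probe of every member, a setting chosen after the values were seen, the gap between the pair and the other loci changed by -0.84.

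**Figure D4:**
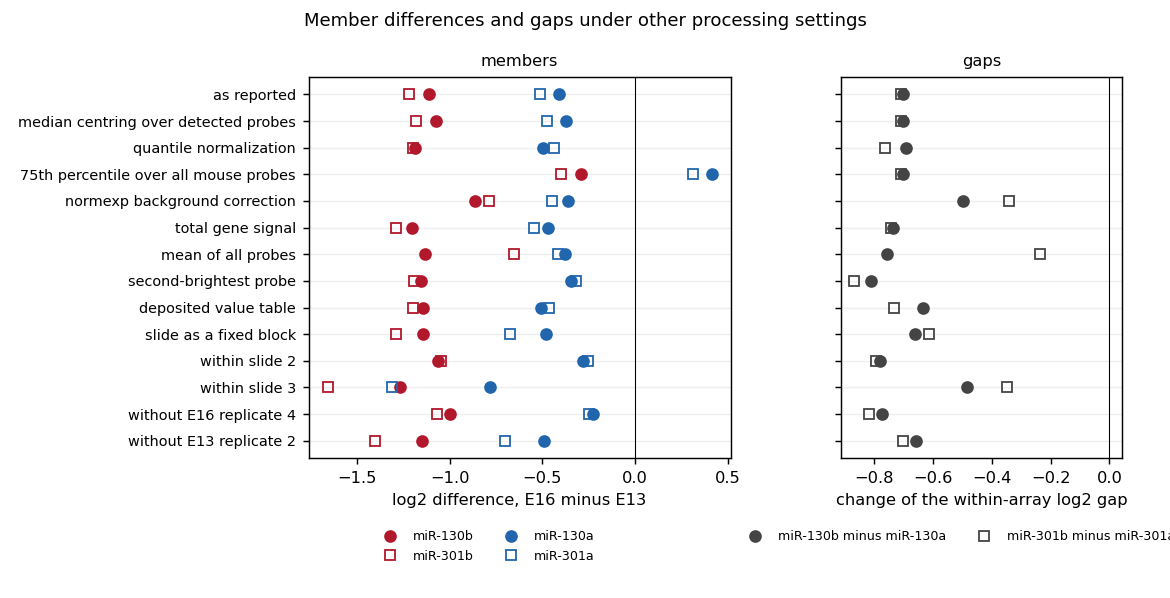
Stage differences of the 4 members (left, log2, E16 minus E13) and changes of the within-array gaps (right, log2) under the reported setting and other settings, one per line. The gaps stay below 0 in every setting drawn, from -0.87 to -0.24, while miR-130a and miR-301a cross to 0.41 and 0.31 when all mouse probes set the percentile.

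Apart from the stage difference, deviations of the arrays from their stage means were most alike between near-namesakes among the 6 member pairs, though other pairs were not far below. Over the 8 arrays the deviations of miR-130b correlated most closely with those of miR-130a among all 152 other tested miRNAs (Pearson r 0.99), and the reverse held too. Those of miR-301b and miR-301a correlated with r 0.94, where miR-301a ranked 4 of 152 for miR-301b and miR-301b ranked 14 of 152 for miR-301a. Across the names, r was 0.875 for miR-130a with miR-301a, 0.866 for miR-130b with miR-301a and 0.788 for miR-130a with miR-301b. For miR-130b, miR-301a ranked 12 of 152. The neighbours miR-130b and miR-301b had r 0.78, where miR-301b ranked 42 for miR-130b and miR-130b ranked 28 for miR-301b. On the log2 scaled signals themselves, stage difference included, miR-130b and miR-301b had the highest r of the 6 member pairs, 0.94, against 0.83 for miR-130b with miR-130a. The values of one array share a sample, its depth of signal and a scaling factor. The median r of deviations over all pairs of tested miRNAs was 0.24. With 8 arrays these values are a description. Shared probe sequence and shared behaviour of the miRNAs cannot be told apart here.

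Outside the family, the tested miRNAs whose log2 scaled signals over the 8 arrays were most like miR-130b were miR-410, miR-431 and miR-495 (r 0.99 each), which come from the imprinted Dlk1-Dio3 region. Of their 4 E16 values 1, 4 and 3 were at the floor, so that these correlations rest mainly on the stage difference. miR-301b was closest to miR-124*, the less abundant arm of the neuronal miR-124 hairpin (r 0.99), then to miR-18a (0.97) and miR-20b (0.96). miR-130a was closest to miR-20a and miR-20b (0.97 each) and to miR-210 (0.96), a miRNA induced by hypoxia. miR-301a was closest to miR-19a (0.98), miR-219 and miR-140 (0.96 each). By deviations from the stage means, miR-130a was closest to miR-20b (0.96), miR-18a (0.95) and miR-350 (0.95), and miR-130b to miR-20b (0.95), miR-18a (0.94) and miR-210 (0.93). miR-301a was closest by this measure to miR-22 (0.98), miR-19a (0.98) and miR-181a-1* (0.97), and miR-301b to miR-19a, miR-181a-1* and miR-22 (0.95, 0.95 and 0.94).

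The other arm of the miR-130b hairpin was near background. Its 20-base probe, the brightest of 4, was well above background on 2 arrays of each stage, with processed signals of 7.05 to 23.6 at E13 and 1.62 to 15.7 at E16. The log2 scaled signal was -4.53, -4.83, -4.38 and -4.90 on the E13 arrays and -5.42, -5.57, -5.39 and -5.96 on the E16 arrays, the last of them at the floor. miR-130b* was thus lower at E16 on every array, as its partner arm was, with a log2 difference of -0.93 (SE 0.19) whose size is not exact because of the floor.

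Among the mature mouse miRNAs given by RefSeq, 7 carry the seed AGUGCAA, namely miR-130a-3p, miR-130b-3p, miR-301a-3p, miR-721, miR-130c, miR-6341 and miR-6389. Mature miR-301b was not matched in that set and is therefore not counted, and its hairpin as printed contains AGUGCAA. Of those outside the family only miR-721, encoded within Cux1, had probes on the array. It was well above background on 0 of 8 arrays, with signals of -1.97 to 1.28 for the probe that stood for it. Its probes are 12 to 15 bases long, shorter than those of the members.

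A further group carries a shifted version of the seed, with the 6 shared bases in capitals.

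mmu-miR-19a-3p: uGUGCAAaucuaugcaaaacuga

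mmu-miR-148b-3p: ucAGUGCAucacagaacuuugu

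Of the 5 miRNAs in this group (miR-19a, miR-19b, miR-148a, miR-148b and miR-152) 3 were tested, and 0 passed the limma test in either direction, with 0 at an unadjusted p under 0.05. The log2 difference was -0.48 (SE 0.29) for miR-19a, -0.18 (SE 0.25) for miR-19b and -0.44 (SE 0.40) for miR-148b, with a median of -0.44 against -0.40 for all tested miRNAs. miR-148a was well above background on 3 of 8 arrays and miR-152 on 0.

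The chromosome 16 pair and miR-301a lie inside protein-coding genes on the strand of the host, and the starts of both hosts are shown because intronic miRNAs can be made from the host transcript. The windows hold 250 bases before and 50 after the annotated start, with CCAAT in capitals (searched as CCAAT and, for the other strand, ATTGG). This motif and TTTGAA (other strand TTCAAA) were chosen after the sequences were seen.

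2610318N02Rik promoter: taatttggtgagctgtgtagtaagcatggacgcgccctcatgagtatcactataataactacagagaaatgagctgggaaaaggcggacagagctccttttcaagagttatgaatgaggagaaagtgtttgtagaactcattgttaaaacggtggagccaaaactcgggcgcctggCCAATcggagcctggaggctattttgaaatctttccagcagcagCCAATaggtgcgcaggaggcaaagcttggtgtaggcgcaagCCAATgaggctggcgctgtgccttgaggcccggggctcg

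Ska2 promoter: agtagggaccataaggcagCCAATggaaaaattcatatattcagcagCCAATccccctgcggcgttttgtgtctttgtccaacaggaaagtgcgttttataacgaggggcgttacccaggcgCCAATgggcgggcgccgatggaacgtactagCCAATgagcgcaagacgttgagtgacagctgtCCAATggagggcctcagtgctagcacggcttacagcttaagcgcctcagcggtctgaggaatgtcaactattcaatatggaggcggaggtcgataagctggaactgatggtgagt

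The window of 2610318N02Rik (chr16:17125153-17125452, minus strand) holds 3 such matches and that of Ska2 (chr11:87109011-87109310, plus strand) 5. Of 32851 promoter windows 37.4% hold at least 1, 3.37% hold 3 or more and 0.271% hold 5 or more. TTTGAA occurs 1 time in the window of 2610318N02Rik and 0 times in that of Ska2, and 17.9% of the windows hold it. A match is a description of the letters. The array measures mature miRNAs, and neither host transcript was measured.

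Markers of blood, immune and endothelial cells were low at both stages. The erythroid miRNAs miR-451, miR-144 and miR-486, the leukocyte and microglial miRNAs miR-142-3p, miR-142-5p and miR-223 and the endothelial miR-126-3p and miR-126-5p were well above background on 0 of 8 arrays, with processed signals of -1.66 to 2.62. Their summed scaled signal on E13 and E16 arrays reached at most 0.00412 and 0.00587 for the erythroid, 0.00658 and 0.0086 for the leukocyte and microglial and 0.00251 and 0.00347 for the endothelial list. The neural miRNAs miR-9, miR-9*, miR-124 and miR-128 were well above background on all 8 arrays, and 0 of these 4 passed the limma test, with 0 at an unadjusted p under 0.05. The log2 difference was -0.09 (SE 0.20) for miR-9, 0.33 (SE 0.28) for miR-9*, -0.07 (SE 0.41) for miR-124 and -0.15 (SE 0.36) for miR-128. The SD of miR-124 was 0.30 at E13 and 0.90 at E16, and that of miR-128 was 0.26 and 0.78. The list as a whole does not separate neurons from progenitors, so the presence of neurons in the sorted cells was not tested. The summed scaled signal of the 4 neural miRNAs was 9.67 to 17.2 on the E13 arrays and 11.3 to 19.2 on the E16 arrays. The sums depend on the brightness of the probes, so they compare arrays within a list and not the levels of different lists.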

How the data were processed

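Per the labels' protocols, cyanine-3 was attached to 100 ng of total RNA for Agilent miRNA arrays. Per the file headers, the authors' scanner files come from Agilent Feature Extraction 10.7.3.1, with probes placed on mm9. The deposited files give intensities per spot, background-subtracted in the processed signal and not scaled between arrays. The authors' deposited value table, on a log2 scale, covers 1187 spots and 86 miRNAs, all 4 members included. Its columns share a median of 6.90 and rank spots as the processed signal does (Spearman correlation 1). It served as an alternative, and how it was normalized is unknown here.

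Control and outlier spots (1.91% to 3.87% of mouse spots per array) were left out, 0 spots were saturated, and spots of a probe were averaged. A probe counted as well above background when the flag was set for at least 0.5 of its spots. Signals were divided by the array's 75th percentile over the 126 mouse probes (of 1759) well above background on all 8 arrays, floored at percentile 1 of the detected scaled signals (log2 -5.96) and put on the log2 scale. The fit took the 153 miRNAs that passed this on 4 or more arrays and used limma 3.58.1 in R 4.3.3 (lmFit, eBayes), with Benjamini-Hochberg adjustment at 0.05. Standard errors and 95% intervals of members come from that fit, and those of gaps from the pooled SD of 4 and 4 arrays. The fit was tested on simulated data. The number of arrays limits the precision.

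The members, lists and alternatives were chosen with earlier results of these data known. Besides the members, the text names the other arm of their hairpins, miRNAs with the same or a shifted seed, the 3 tested miRNAs most like each member by Pearson r over the 8 arrays (levels, and deviations from the stage means), markers of other cells, and members with an outlying array.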

Additional observations from a re-analysis of the deposited data

Results flagged for a closer look

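Of 22 sets of 4 arrays of a stage, among them overlapping gaps of the same members, 3 held an array that lay farther from the others than Dixon's criterion allows at its 95% level, where chance alone does this in about 1 of 20 sets. The log2 scaled signal of miR-301a on E13 replicate 2 was 1.23, below the other E13 arrays at 1.98 to 2.02. On the same array miR-301b was also the lowest of its stage, so that the gap between both was not unusual there. The gap of miR-301b minus miR-301a was -2.84 on E13 replicate 3, below the other E13 arrays at -2.71 to -2.70. The gap of miR-301b minus miR-130a was -3.85 on E16 replicate 2, below the other E16 arrays at -3.46 to -3.43.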

How the results depend on the processing

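Of 22 alternatives, miR-130b and miR-301b were lower at E16 in all 22, and miR-130a and miR-301a in 21, which describes members chosen on this comparison. For the changes of the gaps of the pair, of miR-130b minus miR-130a and of miR-301b minus miR-301a, 5 of the 22 return the reported value by construction, and the other 17 were all negative. The pair was chosen for its lower signal at E16 and the settings reuse the same arrays, so this too is a description. With the 75th percentile over all mouse probes 47 miRNAs were called higher and 16 lower, and the members stood at 0.41 (miR-130a), -0.29 (miR-130b), 0.31 (miR-301a) and -0.40 (miR-301b), none called, with the gaps as reported. Normexp background correction gave 5 higher and 2 lower calls, with -0.86 for miR-130b, -0.79 for miR-301b (not called) and gap changes of -0.42 for the pair, -0.50 for miR-130b minus miR-130a and -0.34 for miR-301b minus miR-301a. Its offset of 50 makes log2 differences smaller by construction, more so for dim probes, and its share of the change was not tested. The mean of all probes, which counts 2 dim miR-301b probes, gave -0.65 for miR-301b, -0.50 for the pair gap and -0.24 for the miR-301b gap. Lower calls numbered 23 after quantile normalization, 11 of the 86 miRNAs in the deposited table, 10 of the 75 detected on all arrays, 25 within slide 2 (where miR-301b was not called) and 88 within slide 3, against 40 as reported. Within slide 3, where E16 replicate 4 stands alone and is assumed to vary like the E13 arrays, the differences were -0.78 (miR-130a), -1.27 (miR-130b), -1.31 (miR-301a) and -1.66 (miR-301b), and the gap changes -0.42, -0.48 and -0.35. In the deposited table miR-130a (-0.51) was called lower as well as miR-130b (-1.14) and miR-301b (-1.20), and miR-301a (-0.46) was not. The second-brightest probe was chosen as an alternative after the data were seen. Apart from the construction of the settings, the causes were not tested.

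Leaving out 1 array gave 8 to 23 higher and 22 to 46 lower calls, with 22, 24, 22 and 23 lower without E13 replicates 1 to 4 and 23 higher without E16 replicate 4. The ranges were -0.49 to -0.23 for miR-130a, -1.15 to -0.998 for miR-130b, -0.70 to -0.25 for miR-301a, -1.40 to -1.07 for miR-301b, and for the gaps -0.80 to -0.66 (pair), -0.77 to -0.66 (miR-130b minus miR-130a) and -0.82 to -0.64 (miR-301b minus miR-301a).

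No pairing by replicate number was seen, as deviations of same-numbered arrays correlated at -0.10, 0.07, 0.27 and -0.15. This check cannot exclude a pairing. A replicate block gave 10 higher and 35 lower calls and left the differences at -0.41, -1.11, -0.51 and -1.22 and the gap changes at -0.71, -0.70 and -0.71. Low signal limits miR-130b* and the E16 replicate 4 array, where 76 miRNAs were well above background against up to 206 elsewhere.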
